A study of Mus musculus with 58 samples.

Results

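The response of the lung to a high dose of benz(a)anthracene (BaA) was compared with that of the liver of the same mice, gene by gene, as a difference between 2 differences. The D3 effect in a tissue is the mean of the high-dose mice (D3) minus the mean of the vehicle controls (D0), and the liver effect was subtracted from the lung effect. A positive difference of effects therefore means that a transcript moved up more, or down less, in lung than in liver. The members were the D0 and D3 arrays of lung and liver, 19 of the 58 arrays analysed here, with lung D0 from 5 mice (numbers 1 to 5), lung D3 from 5 mice (16 to 20), liver D0 from 5 mice (1 to 5) and liver D3 from 4 mice (16 to 19). The liver of mouse 20 was not analysed here.

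All animals were male Muta™Mouse mice aged 10 weeks, a transgenic line made for scoring mutations in a bacterial reporter gene. BaA, a polycyclic aromatic hydrocarbon, was given in olive oil by oral gavage on 28 days. The D3 mice received 80 mg/kg-bw/day and the D0 mice received olive oil alone (0 mg/kg-bw/day), and tissues were taken 72 h after the final dose. RNA came from random sections of lung or liver, so fewer cells of a type and less RNA per cell cannot be told apart in these values. Each array compared the tissue RNA (Cy5) with a universal reference RNA pooled from 11 mouse cell lines (Cy3), and every level below is the log2 ratio of tissue to reference that the authors deposited.

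Polycyclic aromatic hydrocarbons bind the aryl hydrocarbon receptor (AhR), which switches on cytochrome P450 genes whose enzymes turn the hydrocarbon into reactive epoxides. Lung and liver differ in how they take up and metabolise such compounds, and the comparison asks which genes responded differently in the 2 organs. The lists below also cover other systems. All lists were chosen with earlier results of these data known, so their counts describe the members and are no separate evidence. Heat shock proteins are chaperones that fold proteins and are switched on by heat shock factor at heat shock elements in their promoters. Nuclear long RNAs such as Neat1 and Malat1 build or lie in nuclear bodies where splicing factors are stored, and CLK kinases and cyclin L proteins regulate the splicing factors themselves. The circadian clock drives daily rhythms of transcription in both organs.

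Marker lists were used to check the tissue labels. All 15 lung markers measured, surfactant proteins among them, were well above background on every lung array, whereas 10 of them were at background in liver. All 18 liver markers were well above background on every liver array, and in lung 5 of them were at background at D0 and 8 at D3. The list level of the liver markers in lung ranged from 0.398 to 1.060 at D0 and from 0.739 to 0.914 at D3, against 6.912 or more in liver. The lung of D0 mouse 5 stood apart in skeletal muscle markers (4.854, against at most 1.385 in the D3 lungs), and the lung of D3 mouse 17 in thymus and T cell markers (1.914). The heart muscle markers varied widely between lung arrays, from 0.447 to 3.604 at D0 and from -0.155 to 3.318 at D3. Of the 9 marker lists, none differed between D3 and D0 in either tissue (exact permutation tests, two-sided, lowest p = 0.151, adjusted p of 0.834 or more, smallest p possible 0.00794). The share of spots well above background was 44.4 to 55.2% in lung and 34.9 to 45.7% in liver, and replicate arrays of a group correlated across features with r of 0.939 to 0.987.

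In all, 20031 features (array probes) had a tissue signal well above background on 4 or more arrays in both tissues, and 11037 genes with a symbol were among them. The difference of effects was called for 384 features (1.92%) at an adjusted p of at most 0.05 and a fold of at least 1.5, the thresholds of the study. Of these, 305 (1.52%) were more positive in lung and 79 (0.394%) more negative. Taking 1 feature per gene, 230 of the 11037 genes were called (2.08%), 183 of them more positive in lung (1.66%) and 47 more negative (0.426%). Without the lungs of D0 mouse 5 and of D3 mice 16 and 17, which held the highest muscle or thymus marker levels, 250 features were called. Leaving out single arrays moved the count from 206 (without the liver of D3 mouse 18) to 578 (without the liver of D0 mouse 5), and it was 239 without the lung of D0 mouse 3 and 238 without the lung of D3 mouse 19. With median centring in place of the authors' intensity-dependent scaling, the median of all features shifted to 0.28, so changes are given relative to the latter, and 0 features were called by limma with 603 at an unadjusted p under 0.05.

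Among the genes called, the estimated D3 effects mostly had opposite signs in the 2 tissues. Selecting genes by the difference of effects favours opposite signs, so these counts describe the called genes only. Of the 183 genes more positive in lung, 168 had a D3 effect above 0 in lung and below 0 in liver, 14 were above 0 in both and 1, Pde5a, was below 0 in both. The median D3 effect of these 183 genes was 0.60 in lung and -0.29 in liver. Of the 47 genes more negative in lung, 40 were below 0 in lung and above 0 in liver, 5 were below 0 in both (Mkks, Chordc1, Kitl, Dnaja1 and Hspa1a) and 2 were above 0 in both (Sipa1l2 and Bmf). Their median D3 effect was -0.40 in lung and 0.34 in liver.

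Few genes passed the test in both tissues separately. Over all genes tested, the lung effect was called for 164 genes higher at D3 (1.49%) and 67 lower (0.607%), and the liver effect for 18 higher (0.163%) and 32 lower (0.29%). Among the 183 genes with a more positive difference, 87 were called higher in lung and not called in liver, 7 were called lower in liver and not called in lung, 86 were called in neither tissue alone, and 3 (Neat1, Igflr1 and Shfl) were called in both in opposite directions. Among the 47 with a more negative difference, 12 were called lower in lung only, 9 higher in liver only and 26 in neither tissue alone. The lung D0 and D3 arrays did not overlap for 167 of the 230 called genes, where 10.1% of all genes did not overlap, and the liver arrays did not overlap for 48 of the 230, against 6.16% of all genes. The lung minus liver difference within each mouse, from 5 D0 and 4 D3 mice, did not overlap between the doses for 205 of the 230 called genes, against 8.22% of all genes. These counts use the same arrays as the test and describe the called genes only.

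**Figure D1:**
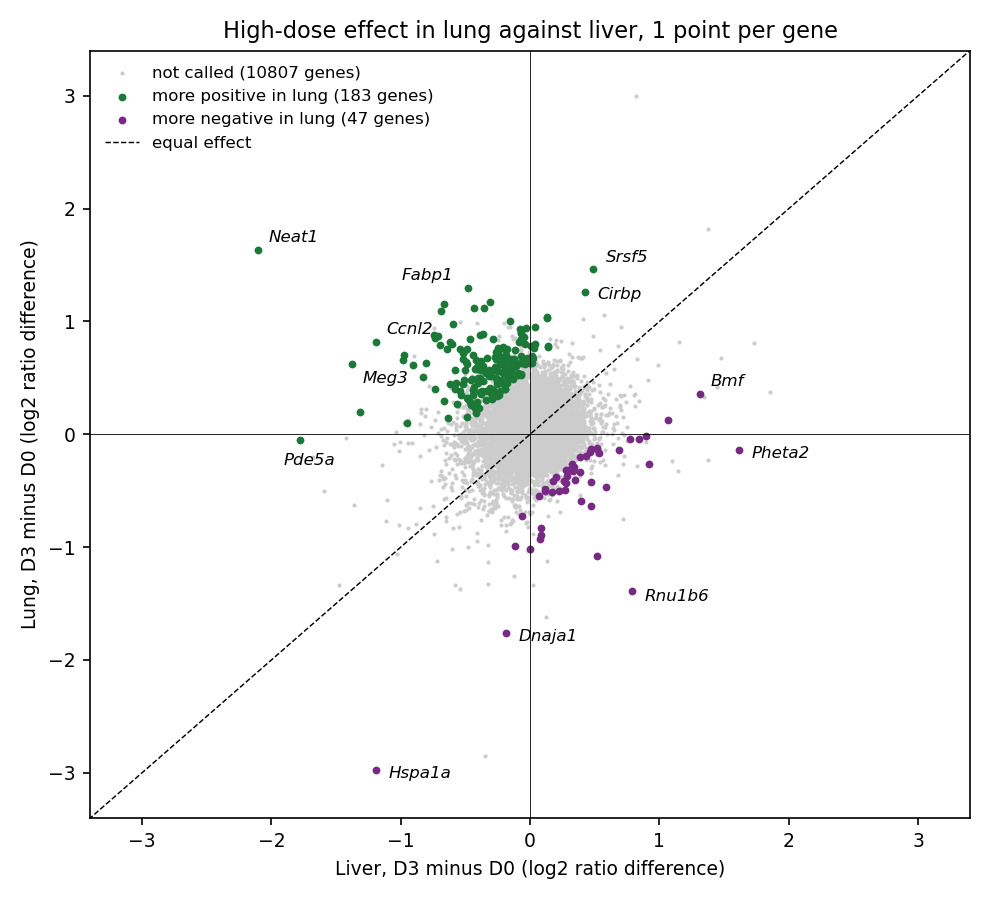
Each point is 1 of the 11037 genes, with its D3 effect in liver on the x axis and in lung on the y axis, both as differences of log2 ratios. Green points are the 183 genes called more positive in lung and purple points the 47 called more negative. Neat1 lies far from the dashed line of equal effects, at -2.10 in liver and 1.63 in lung.

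Neat1 had the largest difference of effects of the 230 called genes. Neat1, the scaffold RNA of paraspeckles, had a difference of 3.74 ± 0.68 (SE) on the log2 scale, a 13.3-fold difference between the tissues' responses (adjusted p = 0.00723). In lung its log2 ratio was -1.75, -1.74, -1.60, -1.48 and -1.38 at D0 and -0.66, -0.41, -0.25, -0.21 and 1.76 at D3. In liver it was -2.39, -1.40, -0.49, 0.36 and 0.67 at D0 and -3.10, -2.72, -2.64 and -2.55 at D3. Neat1 therefore rose in lung by 1.63 and fell in liver by 2.10, and the D0 and D3 arrays overlapped in neither tissue. The highest lung value came from D3 mouse 19, without which the difference was 3.31, and the lowest liver control was mouse 5, without which it was 4.17.

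Meg3, an imprinted long RNA, and Malat1, the long RNA of nuclear speckles, differed in the same direction. Meg3 lay between -1.21 and -0.81 in lung at D0 and between -0.80 and 0.48 at D3, and between -0.58 and 1.51 in liver at D0 and between -0.67 and -0.46 at D3. Its difference of effects was 2.00 ± 0.43 (adjusted p = 0.0188), with a liver effect of -1.38 (adjusted p = 0.0308) and a lung effect of 0.62 (adjusted p = 0.204). Meg3 was well above background on 4 of 5 liver arrays at D0 but on 1 of 4 at D3, and on 3 of 5 lung arrays at D0, so that it passed the filter in liver through the D0 arrays and the sizes rest on values near background. Malat1 had a difference of 0.74 (adjusted p = 0.0243) and Snhg3, a host gene of small nucleolar RNAs, of 0.97 (adjusted p = 0.0306). Of the 8 tested members of the list of nuclear long RNAs and small nucleolar RNA host genes, 4 were called more positive in lung and 0 more negative, where 1.66% and 0.426% of all genes were. The list was chosen with earlier results of these data known, and its median was 0.65, against -0.004 for all genes tested. Kcnq1ot1 went the other way (-0.54, adjusted p = 0.0346) but stayed under the minimum fold. By annotated class, 10 of 82 long noncoding RNAs were called more positive in lung (12.2%) and none more negative, against 1.56% and 0.404% of the 10889 protein-coding genes.

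Of 37 tested cyclin L proteins, CLK kinases and nuclear RNA processors, 10 were called more positive in lung and 0 more negative. Over all genes 1.66% and 0.426% were, but this list too was chosen with earlier results of these data known. The list median was 0.39, and 27 of the 37 lay above 0. All 10 called genes were above 0 in lung and 9 were below 0 in liver, the exception being the RNA helicase Ddx5 at 0.04. Ccnl2, a cyclin that associates with the splicing machinery, had a difference of 2.01 ± 0.38 (adjusted p = 0.00815). Its lung values ran from -1.58 to -1.09 at D0 and from -0.84 to 0.08 at D3, without overlap. In liver 4 of the 5 controls lay between -0.38 and 0.13 and D0 mouse 5 at -1.64, inside the D3 range of -1.91 to -1.32. Another feature of Ccnl2 gave a difference of -0.05 (adjusted p = 0.925), so the features of this gene disagreed.

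Clk1, a kinase that phosphorylates SR splicing factors, lay between -0.51 and -0.05 in lung at D0 and between 0.24 and 0.98 at D3. In liver it lay between -0.24 and 0.43 at D0 and between -0.60 and 0.00 at D3, so that the liver groups overlapped. Its difference was 1.27 ± 0.22 (adjusted p = 0.00496), and the rise of 0.88 in lung was called. The RNA-binding proteins Pnisr (1.59), Hnrnpa2b1 (1.11), Rbm39 (0.88), Arglu1 (0.86) and Hnrnph1 (0.84), the kinase Clk4 (0.91) and Ddx5 (0.76) were among the other called members. Pnisr lost its call without the lung of D3 mouse 19 (adjusted p = 0.0567) and without 8 other single arrays. Hnrnpdl, an RNA-binding protein outside the lists, differed by 1.55 ± 0.23 (adjusted p = 0.00142) and a further feature of the gene by 0.74 (adjusted p = 0.0389).

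At D3 the estimated effects of Srsf5 and Cirbp differed between the tissues in size rather than in direction. Srsf5, an SR splicing factor, lay between -1.46 and -1.04 in lung at D0 and between -0.07 and 0.30 at D3, a rise of 1.47. In liver it lay between -1.69 and -1.01 at D0 and between -0.91 and -0.52 at D3, a change of 0.49 that was not called (adjusted p = 0.0597). The difference of 0.98 ± 0.18 was called (adjusted p = 0.00764). Cirbp, a cold-inducible RNA-binding protein, rose in lung by 1.26 against 0.43 in liver (adjusted p = 0.0842), a difference of 0.83 ± 0.17 (adjusted p = 0.0141). For both genes the D0 and D3 arrays overlapped in neither tissue. Of the 16 SR splicing factors tested, Srsf5 and Son, a scaffold protein of nuclear speckles (0.70 ± 0.14), were called more positive in lung. Over all genes 1.66% were. In the list 8 members were above 0, with a median of 0.06. A further feature of Son gave -0.20 (adjusted p = 0.519), and with the Cy5 channel alone the difference of Son was 0.64 (adjusted p = 0.121). Rsrp1 had a larger difference (1.69) that did not pass (adjusted p = 0.0924).

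**Figure D2:**
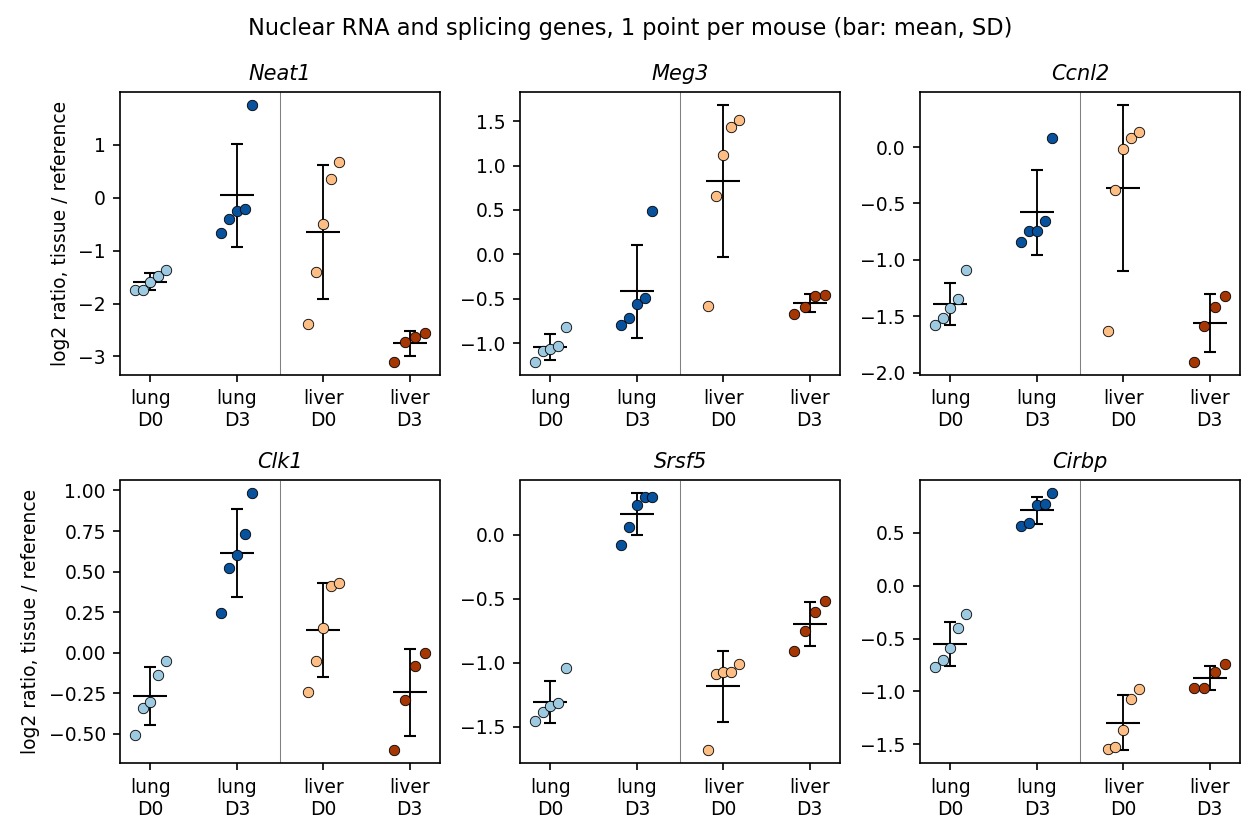
Log2 ratios of tissue to reference for 6 genes, with 1 point per mouse and the mean and SD of each group as bars. Neat1, Meg3, Ccnl2 and Clk1 lie higher on average at D3 than at D0 in lung and lower in liver, whereas Srsf5 and Cirbp lie higher at D3 in both tissues.

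Of 5 small nuclear RNAs tested, Rnu1b6 and Rnu2-10 were called more negative in lung, where 0.426% of all genes were. Both lost the call with the Cy5 channel alone. Rnu1b6, a U1 small nuclear RNA, lay between 0.13 and 0.67 in lung at D0 and between -1.99 and -0.22 at D3, and its difference of -2.17 ± 0.47 was the lowest among the called genes (adjusted p = 0.0194). Its reference channel also differed, by 0.87 (adjusted p = 0.00262), and with the Cy5 channel alone its difference was -1.36 (adjusted p = 0.174). Rnu2-10, a U2 small nuclear RNA, had a difference of -1.59 ± 0.32 (adjusted p = 0.0138), with 0.34 in the reference channel (adjusted p = 1) and -1.03 with the Cy5 channel alone (adjusted p = 0.0536). Rmrp, the RNA of RNase MRP, had a difference of -0.99 ± 0.25 (adjusted p = 0.0411). Rmrp was called in 4 of 19 omissions of a single array, and its call was lost in 31 of 47 alternative settings. The small nuclear RNAs belong to families of near-identical copies, which a probe cannot tell apart.

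**Figure D3:**
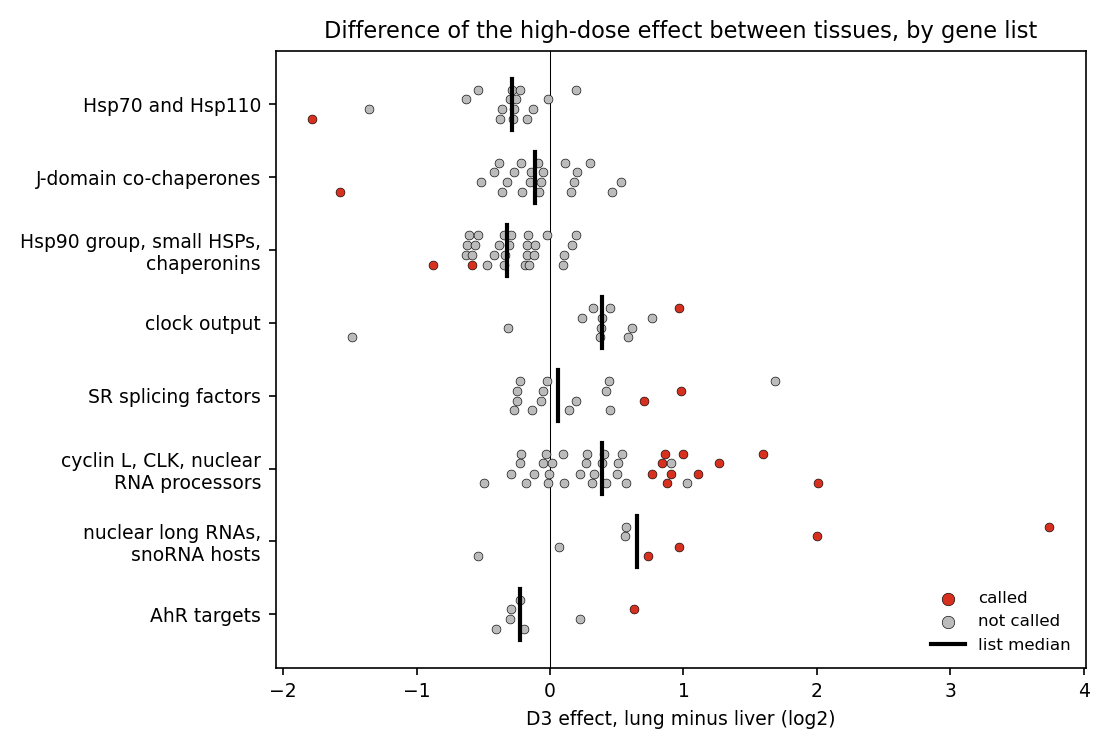
Difference of the D3 effect between lung and liver for every tested member of 8 gene lists, with called genes in red, other genes in grey and the list median as a black bar. The called members of the 3 chaperone lists lie below 0 and those of the nuclear RNA and splicing lists above 0, up to Neat1 at 3.74.

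The 4 chaperone genes called were all more negative in lung, and 3 of them, Hspa1a, Dnaja1 and Chordc1, fell in lung while their liver effect was not called. Their promoters, and that of the clock gene Per3 described further on, are shown because heat shock factor and the clock act at short promoter motifs. They are the 250 bases before the annotated gene start, 5′ to 3′ on the gene's strand, from RefSeq (GRCm38.p6). They lie at chr17:34972157-34972406 on the minus strand (Hspa1a), chr4:40722218-40722467 on the plus strand (Dnaja1, the first of 3 annotated starts), chr9:18292017-18292266 on the plus strand (Chordc1), chr5:129787106-129787355 on the plus strand (Cct6a) and chr4:151044666-151044915 on the minus strand (Per3). Capitals mark the motifs searched.
Hspa1a: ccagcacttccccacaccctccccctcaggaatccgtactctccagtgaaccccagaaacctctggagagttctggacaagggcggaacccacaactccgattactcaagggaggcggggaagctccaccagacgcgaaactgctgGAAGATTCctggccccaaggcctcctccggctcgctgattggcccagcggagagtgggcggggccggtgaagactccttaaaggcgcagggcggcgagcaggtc
Dnaja1: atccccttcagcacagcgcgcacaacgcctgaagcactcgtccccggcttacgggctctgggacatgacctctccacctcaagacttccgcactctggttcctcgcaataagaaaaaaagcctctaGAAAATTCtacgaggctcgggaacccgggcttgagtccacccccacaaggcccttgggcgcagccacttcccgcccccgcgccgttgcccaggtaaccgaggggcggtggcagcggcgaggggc
Chordc1: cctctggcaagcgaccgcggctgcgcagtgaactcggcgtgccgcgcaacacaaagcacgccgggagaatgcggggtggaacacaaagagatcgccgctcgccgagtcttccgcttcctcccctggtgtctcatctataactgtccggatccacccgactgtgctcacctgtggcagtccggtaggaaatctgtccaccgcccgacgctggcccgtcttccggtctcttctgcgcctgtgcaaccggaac
Cct6a: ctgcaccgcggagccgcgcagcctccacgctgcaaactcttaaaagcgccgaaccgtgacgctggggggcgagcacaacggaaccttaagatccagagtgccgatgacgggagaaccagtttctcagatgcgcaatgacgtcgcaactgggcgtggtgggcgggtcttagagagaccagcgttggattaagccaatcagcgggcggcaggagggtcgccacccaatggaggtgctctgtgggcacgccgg
Per3: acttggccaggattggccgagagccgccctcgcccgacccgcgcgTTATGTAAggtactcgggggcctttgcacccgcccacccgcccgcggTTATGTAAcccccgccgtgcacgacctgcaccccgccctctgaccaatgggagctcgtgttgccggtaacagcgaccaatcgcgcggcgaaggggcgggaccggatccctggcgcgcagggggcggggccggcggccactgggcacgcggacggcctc
The motifs were the heat shock element core GAANNTTC or TTCNNGAA, the E-box CACGTG and the D-box TTATGTAA or TTACGTAA, each on both strands. A heat shock core began 104 bases before the start of Hspa1a and 124 bases before the first start of Dnaja1, and none was found in the windows of Chordc1, Cct6a or the other Dnaja1 starts. Of all 32851 promoter windows of this length, 12.8% held such a core. Per3 held 2 D-boxes, 205 and 158 bases before its start, and no E-box. A D-box was found in 0.931% of all windows, 2 or more in 0.0213%, and an E-box in 6.02%. The matches describe the letters in these windows only.

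Hspa1a, the inducible Hsp70, had the lowest lung D3 effect of the 230 called genes. In lung it was 1.46, 2.07, 2.64, 2.91 and 3.66 at D0 and -0.53, -0.50, -0.42, -0.34 and -0.34 at D3. In liver it was 0.42, 0.79, 1.06, 1.82 and 1.86 at D0 and -0.24, 0.02, 0.09 and 0.11 at D3. The D3 mice lay below every control in both tissues, and closer together. The fall was 2.97 in lung (adjusted p = 2.16e-05), and the liver effect was -1.19 (adjusted p = 0.0664). The difference of -1.78 ± 0.45 was called (adjusted p = 0.0389), and the call was lost when any 1 of 12 arrays was left out, with a highest adjusted p of 0.0849 without the liver of D3 mouse 18. With the Cy5 channel alone the difference was -1.43 (adjusted p = 0.109). Hspa1b is a near-identical copy, and its transcripts may bind the same probe.

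Dnaja1, a J-domain partner of Hsp70, had the lowest adjusted p of the called chaperones. Its lung values ran from 0.86 to 1.90 at D0 and from -0.40 to -0.31 at D3, a fall of 1.76, while in liver it ran from 0.45 to 1.15 at D0 and from 0.55 to 1.15 at D3, so that the liver groups overlapped. The difference of -1.57 ± 0.25 (adjusted p = 0.00241) was called whichever single array was left out. A further feature of the gene gave -0.81 (adjusted p = 0.0543). Chordc1, an Hsp90 co-chaperone, fell in lung by 0.99 with a liver effect of -0.12 and a difference of -0.88 ± 0.21 (adjusted p = 0.0315). With the mouse as a block, by within-mouse differences, it was -0.84 (adjusted p = 0.0788), and the call was lost when any 1 of 8 arrays was left out. Cct6a, a chaperonin subunit, had a difference of -0.59 ± 0.12 (adjusted p = 0.0132), just inside the minimum fold and outside it with either mouse block (-0.58 and -0.57), and with the Cy5 channel alone it was -0.58 (adjusted p = 0.103). Cacybp, a protein that binds calcyclin and Hsp90, fell in lung by 0.93, with a difference of -1.01 ± 0.25 (adjusted p = 0.0388). Cacybp was called in 8 of 19 omissions of a single array, and its call was lost in 22 of 47 alternative settings.

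The features that stand for 3 further chaperones, chosen after their values were seen, were not called. Hsph1, an Hsp110, fell in lung by 1.33 with a liver effect of 0.02, and its difference of -1.36 ± 0.38 missed the threshold (adjusted p = 0.0625), while a further feature passed it (-1.51, adjusted p = 0.0494). Hspa8, the constitutive Hsp70, fell in lung by 0.95 with -0.41 in liver, a difference of -0.54 ± 0.19 (adjusted p = 0.157). Dnajb1, a J-domain protein induced by heat, fell by 0.83 in lung and by 0.94 in liver, called in both, and its difference was 0.12 ± 0.19 (adjusted p = 0.828).

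As lists, 1 of 16 Hsp70 and Hsp110 chaperones, 1 of 22 J-domain co-chaperones and 2 of 28 members of the Hsp90, small heat shock protein and chaperonin list were called more negative in lung, and 0 more positive, where 0.426% of all genes were called more negative. With the mouse as a random block the counts were 2, 1 and 1, and with within-mouse differences 2, 1 and 0. The list medians were -0.28, -0.12 and -0.32, against -0.004 for all genes, and 1 of 16, 7 of 22 and 4 of 28 members lay above 0. The lung effect was called lower for 4, 2 and 1 members, where 0.607% of all genes were. The liver effect was called lower for 0, 1 (Dnajb1) and 0 members, where 0.29% of all genes were. With so low a share in liver, 0 calls do not set a list apart there. Under median centring, where all features shift, the list medians were 0.09, 0.28 and 0.05. In the list of endoplasmic reticulum stress genes 0 of 21 were called, with a median of -0.22 and Manf lowest at -0.80 (adjusted p = 0.336).

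**Figure D4:**
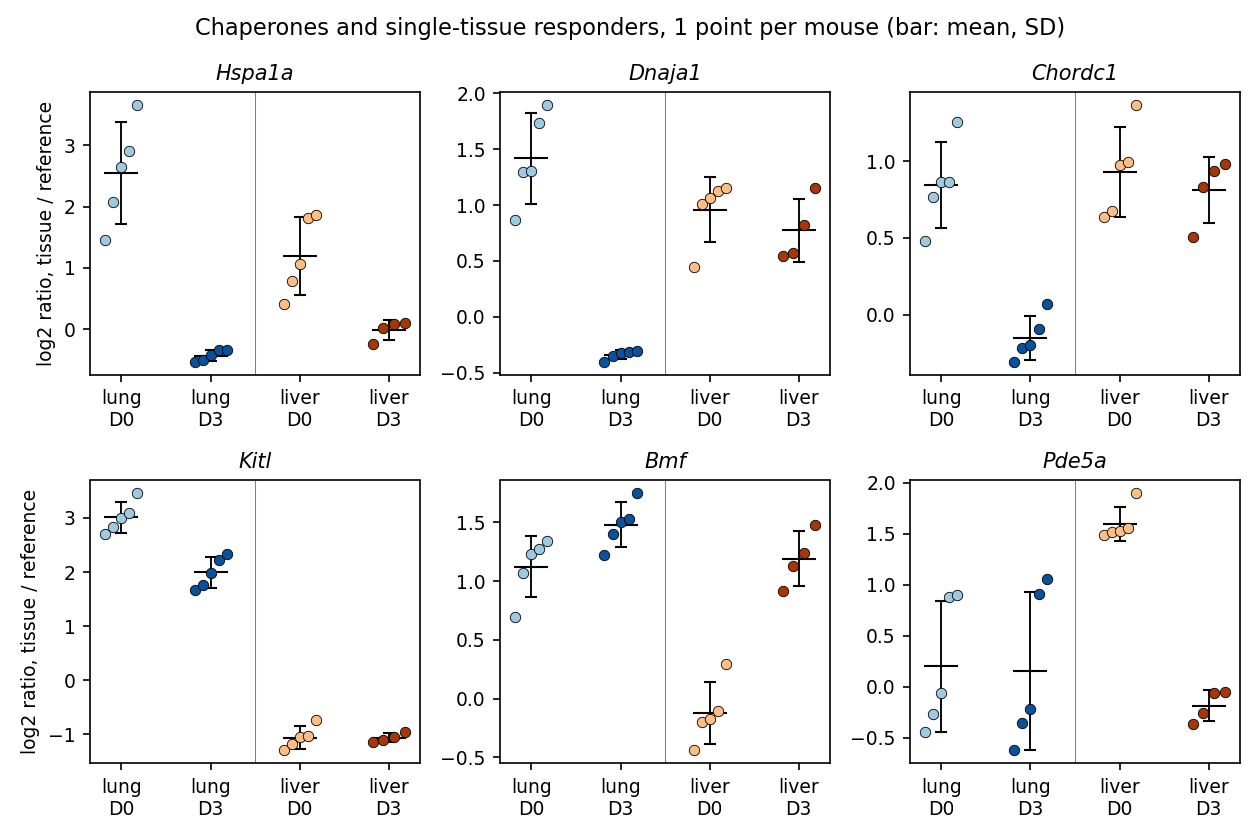
Log2 ratios of tissue to reference for 3 chaperones and 3 genes with a response called in 1 tissue, with 1 point per mouse and the mean and SD of each group as bars. Hspa1a, Dnaja1, Chordc1 and Kitl are lower at D3 in lung, Bmf is called higher and Pde5a lower at D3 in liver but not in lung, Hspa1a lies lower at D3 in liver too, and the 5 lung D3 points of Dnaja1 lie within -0.40 and -0.31.

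Of 12 clock output genes tested, 7 were called higher at D3 in lung and 0 in liver, where 1.49% and 0.163% of all genes were. With so low a share in liver, 0 of 12 does not set the list apart there. The difference of effects was called for 1, Per3, against 2.08% of all genes. The median D3 effect of the list was 0.72 in lung and 0.35 in liver. Per3, a period gene, lay between -0.40 and 0.11 in lung at D0 and between 0.49 and 1.05 at D3, and between -0.33 and 0.78 in liver at D0 and between -0.16 and 0.17 at D3. Its difference of 0.97 ± 0.26 (adjusted p = 0.0479) lost its call when any 1 of 15 arrays was left out, and with the Cy5 channel alone it was 0.47 (adjusted p = 0.421). Dbp, a transcription factor that binds D-boxes, illustrates the others, chosen after its values were seen. Dbp rose in lung by 1.82 and had a liver effect of 1.37 (adjusted p = 0.157), and its difference was 0.45 ± 0.68 (adjusted p = 0.812). Usp2 was lowest in the list, at -1.48 (adjusted p = 0.294). Of 4 tested genes of the opposite phase, 0 were called for the difference. Clock and Nfil3 were called lower in lung, where 0.607% of all genes were. Arntl, a core activator of the clock, was 1.06 lower in lung and 1.03 lower in liver, neither called, with a difference of -0.04 ± 0.62.

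For each array a list score was computed by subtracting the tissue's D0 mean from every gene and averaging these deviations over the genes of the list. The lists hold the called genes and were chosen with earlier results of these data known. The scores also use the same arrays as the test, so they describe single mice and are no separate evidence. Among the controls, mouse 3 had the lowest clock output score in both lung (-0.536) and liver (-0.838), and mice 2 and 4 the highest in both (0.334 and 0.288 in lung, 0.605 and 0.507 in liver). The D3 scores ran from 0.488 to 1.036 in lung, above every control, and from 0.241 to 0.595 in liver, inside the control range. For the 61 nuclear RNA and splicing genes the scores ran from -0.031 to 0.044 in the lung controls and from 0.115 to 0.376 in the D3 lungs, and mouse 19 was highest. In liver the controls ran from -0.211 to 0.124 and the D3 mice from -0.321 to -0.203, and control mouse 5 lay among the D3 mice. For the 66 chaperone genes the lung scores ran from -0.106 to 0.051 at D0 and from -0.403 to -0.191 at D3, without overlap, and in liver from -0.135 to 0.105 and from -0.115 to 0.082.

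**Figure D5:**
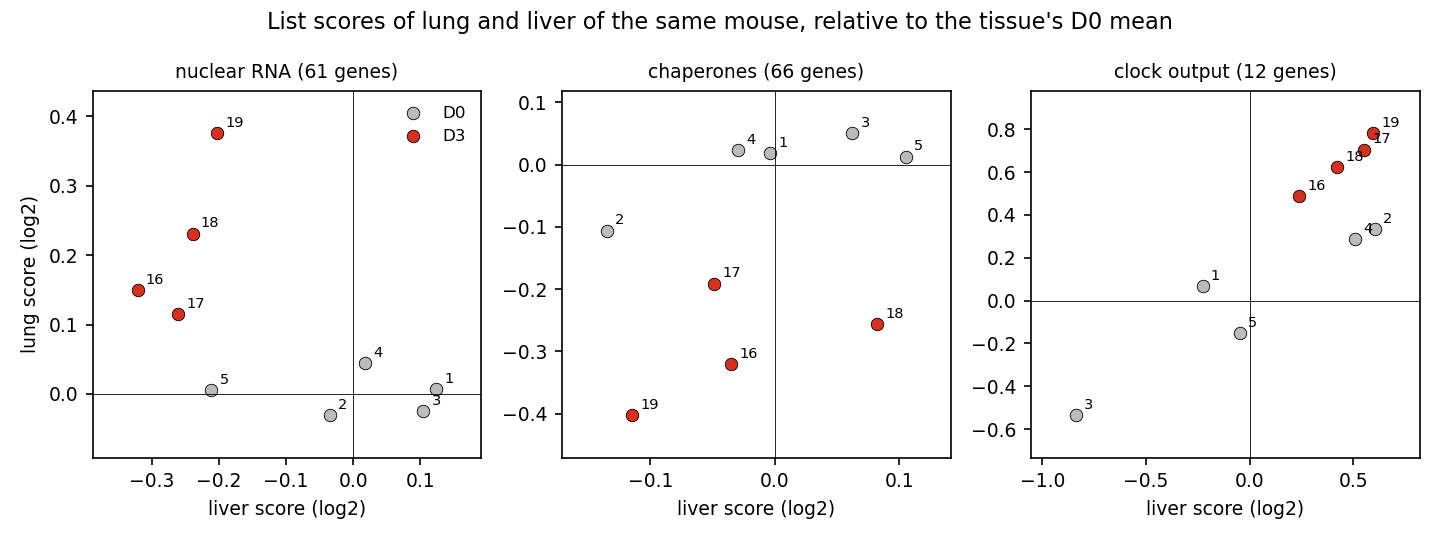
List scores of liver (x axis) and lung (y axis) of the same mouse, in log2 units relative to the D0 mean of the tissue, with grey points for D0, red points for D3 and the mouse number beside each (mouse 20 is left out). The D3 mice lie up and left for nuclear RNA genes and down for chaperones, and for clock output control mouse 3 is lowest in both tissues, at -0.838 and -0.536.

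Genes with a response called in liver only were few. Pde5a, the phosphodiesterase that degrades cGMP, lay between 1.48 and 1.90 in liver at D0 and between -0.37 and -0.06 at D3, a fall of 1.78, while its lung values ran from -0.44 to 0.90 and from -0.62 to 1.06. The difference of 1.73 ± 0.44 (adjusted p = 0.0385) was called in 6 of 19 omissions of a single array. Bmf, a BH3-only protein that promotes cell death, rose in liver by 1.32, from between -0.44 and 0.29 to between 0.91 and 1.48, against 0.36 in lung (adjusted p = 0.124), and differed by -0.96 ± 0.21 (adjusted p = 0.0191). Bmf was the only called member of 18 death regulators of the Bcl2 family, where 2.08% of all genes were called. Rassf4, a Ras-association domain protein, fell in liver by 1.31 and differed by 1.51 ± 0.32 (adjusted p = 0.0164). Of the 4 D3 liver arrays, 3 were well above background for Pde5a and 3 for Rassf4. Sipa1l2, a GTPase-activating protein, rose in liver by 1.07 and differed by -0.94 ± 0.22 (adjusted p = 0.0320). Pheta2 rose in liver by 1.62 on average, but the liver of 1 D3 mouse lay at 1.02, inside the D0 range, while the other 3 lay between 2.71 and 3.44. Its difference was -1.76 ± 0.43 (adjusted p = 0.0347), called in 8 of 19 omissions of a single array. Tle3, a transcriptional corepressor, rose in liver by 0.59, with overlapping liver arrays, and had a lung effect of -0.46 (adjusted p = 0.0159) that was under the minimum fold, with lung arrays that did not overlap. It differed by -1.05 ± 0.16 (adjusted p = 0.00241).

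Of the genes with the most positive differences, Lime1, Igflr1 and Shfl were called higher at D3 in lung. Lime1, an adaptor of lymphocyte receptors, lay between -2.20 and -1.84 in lung at D0 and between -1.15 and -0.35 at D3, a rise of 1.15, with a liver effect of -0.66 (adjusted p = 0.0588). Its difference was 1.82 ± 0.24 (adjusted p = 0.000722), and a further feature gave 1.58 (adjusted p = 0.000655). Igflr1, a receptor of the tumour necrosis factor receptor family, rose in lung by 1.09 and fell in liver by 0.69, a difference of 1.78 ± 0.23 (adjusted p = 0.000655). Shfl, an interferon-induced inhibitor of viral translation, rose in lung by 0.61 and fell in liver by 0.91, a difference of 1.52 ± 0.21 (adjusted p = 0.00108). The B cell, T cell, chemokine, interferon and MHC lists had 0 members called for the difference among 12, 10, 21, 34 and 19 tested. Over all genes 2.08% were called, so 0 is near that share for lists of this size. The list medians were 0.09, 0.15, 0.16, 0.13 and 0.23, against -0.004 for all genes. Cd79b, a B cell receptor subunit, rose in lung by 0.77 against 0.21 in liver, and its difference of 0.57 ± 0.16 did not pass (adjusted p = 0.0692).

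Kit ligand (Kitl) fell and its receptor Kit rose in lung. Kitl lay between 2.69 and 3.45 in lung at D0 and between 1.66 and 2.33 at D3, a fall of 1.02, with a liver effect of -0.002 and a difference of -1.02 ± 0.21 (adjusted p = 0.0135). Kit, chosen after its values were seen, rose in lung by 0.75 (adjusted p = 0.0233), with a liver effect of -0.48 (adjusted p = 0.244) and a called difference of 1.24. Gas1, a growth arrest gene, fell in lung by 0.83, with a difference of -0.92 ± 0.23 (adjusted p = 0.0363), but a further feature of the gene gave -0.23 (adjusted p = 0.536). With the Cy5 channel alone the difference of Gas1 was -0.43 (adjusted p = 0.437), without the lung of D3 mouse 19 it was -0.89 (adjusted p = 0.0681), and the call was lost in 29 of 47 alternative settings.

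Among the metabolic lists tested here, 3 each had 1 called member, where 2.08% of all genes were called. For most lists of this size 0 or 1 call is near that share. Fabp1, the liver fatty acid binding protein, rose in lung by 1.29, from between 3.59 and 4.64 to between 4.84 and 6.04, and lay between 9.52 and 10.71 on all liver arrays. Its difference of 1.77 ± 0.32 (adjusted p = 0.00723) was the only call among 33 PPARα and fasting targets. The list level of the liver markers in lung, given above, was 0.182 higher at D3 than at D0 on average (exact permutation p = 0.151), and its part in this result was not tested. Mlxipl, a carbohydrate-responsive transcription factor (0.73 ± 0.16), was the only call among 23 genes of fatty acid and triglyceride synthesis, and Hsd3b7, a bile acid enzyme (1.15 ± 0.26), the only one among 6 genes of bile acid synthesis. Mlxipl lost its call with the Cy5 channel alone (0.89, adjusted p = 0.144). No member was called among 24 cholesterol genes (median 0.14), 28 conjugating enzymes, 16 CAR and PXR targets, 76 cytosolic ribosomal proteins, 69 respiratory chain subunits or 31 proteasome subunits. The lists of immediate early genes (20 tested), Nrf2 antioxidant genes (21), glucocorticoid-responsive genes (24), matrix genes (26) and chromatin modifiers (41) also had 0 calls.

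The list of AhR targets had 7 tested members, among them the receptor gene Ahr itself and Arnt, and only Ahr was called. None of the tested target genes of the receptor was called. Ahr lay between 1.26 and 1.72 in lung at D0 and between 1.79 and 1.86 at D3, and between 0.43 and 0.94 in liver at D0 and between 0.24 and 0.69 at D3, a difference of 0.63 ± 0.16 (adjusted p = 0.0364), with neither tissue's effect called alone. The call was lost when any 1 of 13 arrays was left out and with the Cy5 channel alone (0.62, adjusted p = 0.126). Tiparp, an AhR target, differed by 0.22 ± 0.16 (adjusted p = 0.521) and Nqo1 by -0.41 ± 0.23 (adjusted p = 0.412). The P450 genes could not be compared, since each was well above background in too few arrays of 1 tissue. Cyp1a1 was well above background on all lung arrays, at 1.60 to 3.07 at D0 and 0.68 to 1.72 at D3, and on 0 liver arrays. Cyp1a2 was above background on all liver arrays, at 4.35 to 5.10 at D0 and 4.47 to 5.01 at D3, and on 0 lung arrays. Cyp1b1 lay at -1.56 to -1.17 in lung at D0 and at -1.09 to -0.30 at D3, and Ahrr, above background on 1 of 5 lung arrays at D0 and 5 of 5 at D3, at -0.83 to -0.60 and at -0.40 to 0.09, while both were above background on 3 liver arrays or fewer.

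Damage response genes gave 1 call, where 2.08% of all genes were called. Ddb2, which recognises ultraviolet and bulky DNA lesions, lay between -1.81 and -1.58 in lung at D0 and between -1.16 and -0.55 at D3, a rise of 0.77, with a liver effect of -0.21. Its difference of 0.98 ± 0.17 (adjusted p = 0.00491) was called whichever single array was left out, and it was the only call among 20 p53 targets and 25 genes of nucleotide excision repair, lists whose medians were 0.01 and -0.01. Cdkn1a, the cell cycle inhibitor p21, fell in lung by 0.69 with 0.01 in liver, and its difference of -0.71 ± 0.24 did not pass (adjusted p = 0.129). The 30 genes of the cell cycle and DNA replication had 0 calls and a median of 0.05.

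Lower doses, measured against the same D0 arrays, gave these values in a fit of all 39 lung and liver arrays. The lung minus liver difference was called for 10 features at D1, 473 at D2 and 499 at D3. For Neat1 it was 2.04 at D1 (adjusted p = 0.153), 3.65 at D2 (adjusted p = 2.29e-05) and 3.74 at D3. For Hspa1a it was -0.86, -1.52 and -1.78, and for Dnaja1 -0.44, -1.11 and -1.57. Bmf, at -0.15, -0.21 and -0.96, was called at D3 only. Pde5a, at 0.60, 0.80 and 1.73, was called at no dose in this fit (adjusted p = 0.0555 at D3). Rassf4, at 1.13, 0.91 and 1.51, was also called at no dose (adjusted p = 0.0539 at D3), and Gas1 was not called at D3 (adjusted p = 0.113). The liver effect of Neat1 was already -2.19 at D1, where the lung effect was -0.14, and the liver effect was -2.37 at D2 and -2.105 at D3. The liver effects at D1, D2 and D3 were -1.32, -1.38 and -1.19 for Ccnl2 and -1.05, -1.41 and -1.38 for Meg3. For these genes the liver effect was thus of similar size at all doses, while for Pde5a it was -0.59, -1.16 and -1.78. For Srsf5 it was -0.61 at D1 (adjusted p = 0.0348), -0.24 at D2 and 0.49 at D3. On every slide the D0 arrays lay in column 1 and the D3 arrays in column 4 (10 and 9 arrays). The D1 arrays lay in column 2 and the D2 arrays in column 3. Position on the slide and dose therefore cannot be told apart at any dose.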

How the data were processed

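RNA of lung and liver sections was hybridised by the authors on 2-colour Agilent arrays, tissue in Cy5 and reference in Cy3, without dye swaps. The authors deposited log2 ratios, normalised by LOWESS on median signals without background subtraction, and spot intensity values per the file headers (Feature Extraction 10.7.3.1). The log2 table was used for every result. The scanner intensity files gave the detection flags and the alternatives. Against loess ratios computed here, the table's columns had r of 0.996 to 0.998 and medians of -0.0445 to -0.0222. The number of arrays limits the precision.

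Symbols came from a RefSeq table (GRCm38.p6) by accession, matching 26413 of 55681 probes. The array grid used another build, so no probe coordinates are given. Features well above background on 4 or more of the lung and 4 or more of the liver arrays entered limma 3.58.1 (R 4.3.3, with the package data.table in version 1.17.8) as a model of 4 groups, and the contrast was tested by limma's moderated test, two-sided, with Benjamini-Hochberg adjustment over 20031 features. Calls needed an adjusted p of at most 0.05 and a fold of at least 1.5. The study used MAANOVA, not installed here. The fit was tested on simulated data.

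Per gene the feature brightest in Cy5 stands for the gene. Named genes are the 15 most positive and 15 most negative called genes with a symbol (predicted genes left out), up to 3 called members of each list with extremes of lists without calls, and Cyp1a1, Cyp1a2, Cyp1b1, Ahrr, Tiparp, Nqo1 and Cdkn1a. Some genes that this rule names are not reported here. Members and lists were chosen with earlier results of these data known. Labels give the same mouse number to tissues of 1 animal, so the numbers pair the samples. Deviations from the group means correlated between lung and liver of a mouse with r of 0.0428 to 0.197, and 8 of 9 lungs were most like their own liver. The mouse block, slide block, other scalings, filters and omissions were run as alternatives. Replicates are separate mice, with 1 array per mouse and tissue.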

Additional observations from a re-analysis of the deposited data

Results flagged for a closer look

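The D3 effect differed between lung and liver, by the interaction test in limma, for 305 features that were more positive in lung and for 79 that were more negative. The genes behind them are described in the report.

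Among the named called genes, 168 groups of 4 or 5 arrays were tested for a single array far from the rest, and 18 held one, where chance flags about 1 in 20. The lung of D3 mouse 19 was such an array for 10 genes. It was the highest of its group for Neat1 (1.755), Ccnl2 (0.082), Meg3 (0.483), Pisd-ps3 (-0.252), Pnisr (1.025), Hnrnpdl (-0.604), Shfl (1.195) and Snhg3 (-1.222), and the lowest for Pheta2 (0.679) and Ahr (1.791). Without it the difference of effects was 3.31 for Neat1, 1.84 for Ccnl2 and 1.77 for Meg3, all still called, while Pnisr (adjusted p = 0.0567) and Snhg3 (adjusted p = 0.054) were not. The liver of D0 mouse 5 stood apart for 5 genes, as the lowest for Ccnl2 (-1.635), Lime1 (-1.681), Fam193b (-1.533) and Srsf5 (-1.685) and the highest for Pde5a (1.895). Without it the difference was 4.17 for Neat1, 2.33 for Ccnl2 and 2.35 for Meg3. The remaining 3 were Dnaja1 in the liver of D0 mouse 2 (0.445), Cct6a in the liver of D0 mouse 3 (-0.652) and Per3 in the liver of D3 mouse 16 (-0.158).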

How the results depend on the processing

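The count of features called for the difference of effects (384) fell to 0 with median centring, rose to 1723 with a slide block and median centring together (99.2% of them more positive in lung, against 79.4%), and was 125 with a minimum fold of 2 and 250 without the lungs of D0 mouse 5 and D3 mice 16 and 17, an alternative chosen after seeing the data. Leaving out 1 array gave 206 to 578. Leaving out both tissues of a mouse gave 126 (mouse 18) to 547 (mouse 5), with 206 (mouse 2), 182 (mouse 3), 251 (mouse 4), 201 (mouse 17) and 175 (mouse 19) in between. The lung count (399) was 1 with median centring, 1040 with the slide block and median centring, 1686 with no minimum fold and 55 with a minimum fold of 2, and 256 to 499 without 1 array and 250 to 496 without 1 mouse. The liver count (120) was 1 with median centring, 446 with Agilent's processed signals, 182 with all arrays of 3 tissues, 198 with a slide block, 359 with no minimum fold and 37 with a minimum fold of 2. It was 45 to 223 without 1 array and 49 to 232 without 1 mouse, with 56 (mice 1 and 17), 55 (mouse 3), 214 (mouse 16) and 54 (mouse 18) in between. The cause of these shifts was not tested. With the mouse as a replicate block the paired fits called 477 features (random block, 382 of the 384 among them) and 417 (within-mouse differences, 313 among them). Besides the calls named in the report, within-mouse differences lost Pcp4l1 (adjusted p = 0.0606), Rmrp (0.0902) and Parm1 (0.0732). Of the 42 named called genes, 23 were called without any single array and 17 in 15 or fewer of the 19 omissions. Across all their alternatives a call held in 1490 cases and was lost in 481, and none reversed. Without the 3 lungs named above, the lists of nuclear long RNAs and of cyclin L and CLK genes had 2 and 6 calls in place of 4 and 10, and clock output 0 in place of 1. Features dim in 1 tissue could not be compared.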

Other observations

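In the reference channel (Cy3), which held the same RNA on every array, 5 of the 20031 features were called for the same difference by limma, Rnu1b6 among them, and 447 had an unadjusted p under 0.05. Of the features called in the tissue ratios, those designed to genomic intervals for long intergenic RNAs numbered 42 more positive and 10 more negative in lung among 2418 tested (1.74 and 0.414%). These shares are near those of all 20031 features (1.52 and 0.394%), and the interval features have no gene name here.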
